A study of Mus musculus with 4 samples.

Results

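The guanylate-binding proteins (GBPs) and the immunity-related GTPases (IRGs) are described here in macrophages grown from the bone marrow of Hem1-deficient (Hem1 KO) and wild-type (WT) mice. Their 10 genes were fixed by symbol: Gbp2, Gbp3, Gbp5, Gbp7, Iigp1, Irgm1, Irgm2, Igtp, Tgtp1 and Ifi47. A probe set naming exactly 1 of them was found for 7, out of 19505 genes tested, and each of the 7 had 1 probe set. Gbp5, Tgtp1 and Ifi47 had none under the platform annotation used and have no values below. The series holds 4 arrays, 2 per genotype, and its design text ties each genotype's 2 arrays to different mice. Femoral marrow was grown for 8 days with 20% L929-conditioned medium and 10% fetal calf serum, and the labels name no interferon or microbial stimulus. Hem1, encoded by Nckap1l, is the blood-cell subunit of the WAVE complex, which drives actin branching. The age, sex and strain of the mice and the deleted part of the gene are not given in the sources used here.

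Both GTPase families are made in response to interferons and defend the cell against microbes that live in vacuoles or in the cytosol. GBPs coat such vacuoles and bacterial surfaces, break them open and feed the inflammasome that senses lipopolysaccharide. IRG proteins fall into effectors with a GKS motif in the GTP-binding loop, such as Iigp1, Tgtp1 and Ifi47, and regulators with a GMS motif, Irgm1, Irgm2 and Igtp, which sit on the cell's own membranes and hold the effectors inactive there. Interferon gamma acts on such genes through the palindromic GAS element in their promoters, and type I interferon through the ISRE. IRF1 also binds ISRE-like sites.

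The RefSeq promoter windows (GRCm38.p6, 250 bases before to 50 after the transcript start) show what these genes share in sequence. Windows were listed for 9 of the 10 genes, 6 of them measured. Iigp1 was not among them. The ISRE core was searched as a pair of GAAA half-sites with any 2 bases between them, on both strands, and the GAS core as TTC and GAA with any 3 bases between them, which reads the same on both strands. An ISRE core lay in 8 of the 9 genes and in all 6 measured ones, against 3.99% of the 27025 genes with a window (3.44% of the 32851 windows). A GAS core lay in 5 of the 9, against 9.55% of genes, and both cores in the same 5, against 0.614%. A match gives the letters only and is not evidence of binding. The last 120 bases before the start are printed 5′ to 3′ along the gene, because they hold every match of the 6 measured genes. Capitals mark the matches.
Gbp2, chr3:142620543-142620662, plus strand: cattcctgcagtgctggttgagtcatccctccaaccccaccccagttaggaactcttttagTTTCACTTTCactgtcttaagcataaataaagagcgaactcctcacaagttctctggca
Gbp3, first window, chr3:142559924-142560043, plus strand: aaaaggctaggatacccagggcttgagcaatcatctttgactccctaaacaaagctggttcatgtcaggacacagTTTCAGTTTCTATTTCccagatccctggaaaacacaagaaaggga
Gbp7, chr3:142530216-142530335, plus strand: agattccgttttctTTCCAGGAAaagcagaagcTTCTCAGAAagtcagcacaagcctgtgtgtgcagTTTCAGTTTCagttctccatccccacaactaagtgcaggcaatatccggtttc
Irgm1, chr11:48871421-48871540, minus strand: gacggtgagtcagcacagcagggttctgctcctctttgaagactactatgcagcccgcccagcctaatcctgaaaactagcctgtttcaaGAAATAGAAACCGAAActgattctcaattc
Irgm2, chr11:58214857-58214976, plus strand: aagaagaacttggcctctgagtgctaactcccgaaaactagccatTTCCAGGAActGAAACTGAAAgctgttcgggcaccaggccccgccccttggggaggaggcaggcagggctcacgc
Igtp, chr11:58199436-58199555, plus strand: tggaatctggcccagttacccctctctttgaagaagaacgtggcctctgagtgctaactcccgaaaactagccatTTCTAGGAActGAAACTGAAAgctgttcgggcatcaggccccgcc

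In the 3 measured GBP genes the ISRE core was on the strand opposite to the gene, and in the 3 IRG genes on the gene's own strand. All 8 ISRE matches of the measured genes began between 64 and 24 bases before the start (positions -64 to -24). Gbp3 and Irgm1 each held 2 overlapping matches and no GAS core, and Gbp2 held 1 match and no GAS core. In Irgm2 and Igtp a GAS core stood just ahead of the ISRE core. These 2 genes are neighbours on chromosome 11, and their windows, lined up at the ISRE core without gaps, were identical at 184 of 270 bases (68.1%), with 61 identical bases in a row. Among the other pairs of the 8 genes with an ISRE core the highest identity was 35.4%, for Igtp and Tgtp1. Gbp5, Gbp7, Gbp3 and Gbp2 lie close together on chromosome 3, with Gbp2b between the last 2. The second window of Gbp3 and the window of Ifi47 held neither core.

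**Figure D1:**
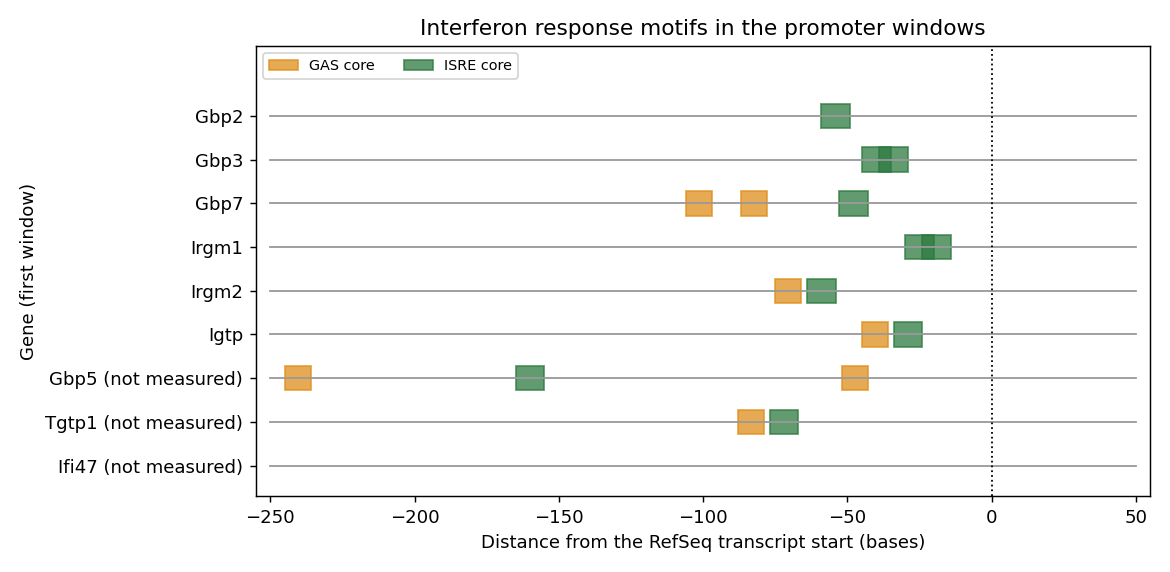
Positions of the ISRE core (green) and the GAS core (orange) in the first promoter window of each gene, in bases from the RefSeq transcript start; the dotted line is the start. In the 6 measured genes all ISRE cores lie within 64 bases of the start, while Gbp5 has its ISRE core at -165 and Ifi47 has neither.

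One array stood apart from the rest. WT replicate 1 was the highest of the 4 arrays for all 7 measured genes, as it was for 37.5% of all genes. After each array was centred on its median it was still the highest for all 7, against 19.5% of all genes. The array medians themselves were 6.82 and 6.42 in WT against 6.95 and 6.49 in Hem1 KO (replicates 1 and 2, log2 scale). Between the 2 WT arrays the 6 genes above background on all arrays differed by 0.69 to 2.11, or 1.61-fold to 4.32-fold. Iigp1 differed by 2.37, but was below background on WT replicate 2, so its fold is not given. After centring this gap, WT replicate 1 minus WT replicate 2, was 0.29 to 1.97. For 10.7% of all genes a gap in that direction was at least as large as the smallest of them, that of Irgm2. In the same direction, 0.144% of all genes had one as large as that of Iigp1, 0.215% as large as that of Gbp7 and 0.241% as large as that of Gbp3. Genes with WT replicate 2 the higher were not counted in these shares, however large their gap. On the deposited scale the 2 Hem1 KO arrays had an SD of 0.08 to 0.34 (n = 2) against 0.49 to 1.67 (n = 2) in WT, smaller for each of the 7 genes. After centring this held for 5 of the 7: replicate 1 minus replicate 2 was -0.94 in Hem1 KO against 0.29 in WT for Irgm2, and -0.58 against 0.58 for Irgm1.

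Among the GBPs, Gbp2, which is drawn to pathogen vacuoles and helps to lyse them, read 7.89 and 6.17 in WT (replicates 1 and 2 here and below) against 6.85 and 6.55 in Hem1 KO, in log2 units. Both Hem1 KO values fell between the 2 WT values. The difference, Hem1 KO minus WT, was -0.33 (SE 0.46, 95% interval -1.32 to 0.66, limma adjusted p = 1.0, as for the other measured members except Igtp).

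Gbp3 had the same order of arrays, with 9.50 and 7.41 in WT against 8.24 and 7.99 in Hem1 KO. Its difference was -0.34 (SE 0.51, 95% interval -1.45 to 0.77). Gbp7, which has been tied to the assembly of the phagocyte oxidase and to autophagy, read 10.11 and 8.00 in WT against 8.51 and 8.13 in Hem1 KO. Here too the Hem1 KO arrays lay inside the WT range on the deposited scale, close to WT replicate 2. After centring, Hem1 KO replicate 1 was the lowest array. Its difference of -0.73 (SE 0.52, 95% interval -1.85 to 0.39) was the largest of the GBPs, 1.66-fold lower, and smaller than the SD of 1.49 between the WT arrays.

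Of the regulatory IRGs, Igtp (also called Irgm3), which is needed for resistance to Toxoplasma and sits on the endoplasmic reticulum and lipid droplets, gave 7.62 and 6.74 in WT against 6.47 and 6.17 in Hem1 KO. It was the only measured member whose genotypes did not overlap: both Hem1 KO arrays lay below both WT arrays. The difference was -0.86 (SE 0.36, 95% interval -1.63 to -0.08), 1.81-fold lower, and did not pass the threshold over all genes (limma adjusted p = 0.744). Without WT replicate 1 it was -0.41.

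Irgm2, a regulator on the Golgi that also restrains the lipopolysaccharide inflammasome, read 8.78 and 8.09 in WT against 7.72 and 8.19 in Hem1 KO. Only Hem1 KO replicate 1 lay below both WT arrays. Its difference was -0.48 (SE 0.35, 95% interval -1.23 to 0.27). Irgm1, which protects against mycobacteria and takes part in autophagy, read 8.14 and 7.16 in WT against 7.24 and 7.36 in Hem1 KO. Both Hem1 KO values were inside the WT range on the deposited scale, but Hem1 KO replicate 1 was the lowest array after centring. The difference of Irgm1 was -0.35 (SE 0.36, 95% interval -1.14 to 0.43).

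Iigp1, the effector IRG that assembles on vacuole membranes, read 7.30 and 4.93 in WT against 5.96 and 5.82 in Hem1 KO. It had the widest gap between WT arrays. Background, the 95th percentile of chemosensory receptor genes, stood at 5.88 and 5.51 in WT and at 6.04 and 5.38 in Hem1 KO. Iigp1 was above it on WT replicate 1 and Hem1 KO replicate 2, while the other 6 measured genes were above it on all 4 arrays. The difference of Iigp1 was -0.23 (SE 0.56, 95% interval -1.43 to 0.97).

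**Figure D2:**
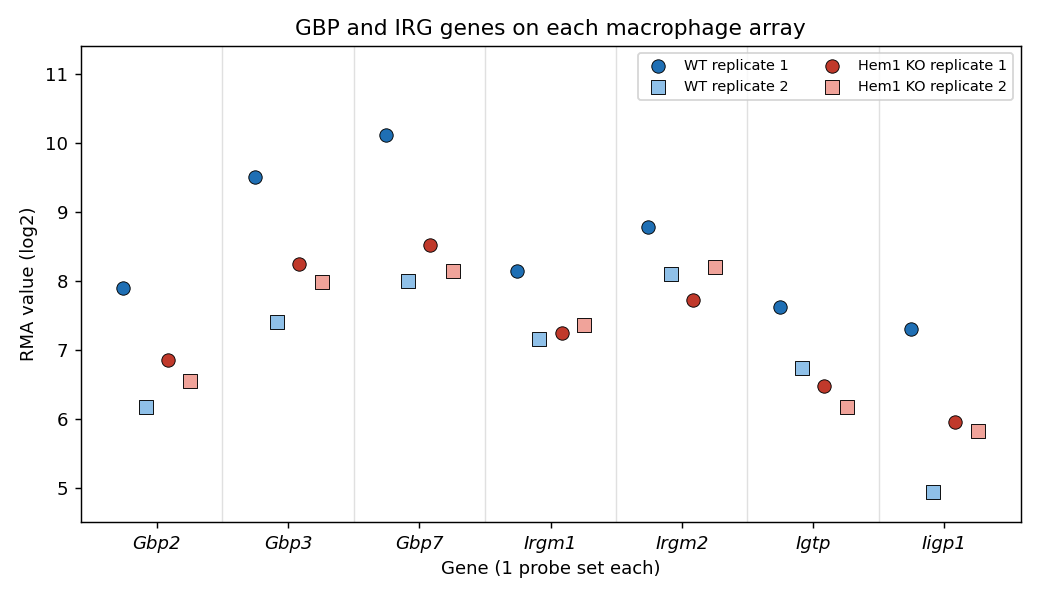
RMA values (log2, y axis) of the 7 measured GBP and IRG genes (x axis), 1 point per array; blue is WT, red is Hem1 KO, circles are replicate 1 and squares replicate 2. WT replicate 1 is the highest point for every gene, and both Hem1 KO points lie below both WT points for Igtp alone.

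Taken over the measured members, limma called 0 of 7 at an adjusted p under 0.05, and 1, Igtp, had an unadjusted p under 0.05. Over all genes 1.61% were called, 0.133% as lower in Hem1 KO, and 1.57% were lower at an unadjusted p under 0.05. Means were lower in Hem1 KO for 7 of 7, against 48.2% of all genes, with a median difference of -0.35 against 0.01 over all genes. Groups without overlap were found for 1 of 7, with Hem1 KO lower, against 13.3% of all genes. The intervals allow a decrease of more than 2-fold for all 7 genes, and for 6 of the 7 they also include an increase. Macrophage markers also had negative differences (9 of 9 measured, median -0.37, 0 called), and whether they bear on the members' values was not tested. In such bulk cultures, fewer cells of a type and less RNA per cell cannot be told apart.

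Leaving out WT replicate 1 turned the sign of 5 of the 7 members on the deposited scale, where the median of all genes moved to 0.16. The difference was then 0.53 for Gbp2, 0.71 for Gbp3, 0.33 for Gbp7, 0.95 for Iigp1 and 0.14 for Irgm1, while Irgm2 (-0.14) and Igtp stayed below 0. With the arrays centred as well, a setting chosen after seeing the data, Irgm1 was at -0.16 and Gbp7 at 0.025, so that 4 of the 7 turned. Without WT replicate 2, all 7 were lower, from -0.83 for Irgm2 to -1.78 for Gbp7, and 1 of the 7, Gbp7, was then called (limma adjusted p = 0.0324), against 1.23% of all genes in that fit. Left with 1 WT array, these fits take the spread of that genotype from the other arrays and genes. Without WT replicate 2 on the deposited scale, every gene had the same SE (0.50). The call of Gbp7 there thus rests on the size of its difference alone. On the deposited scale Igtp and Irgm2 thus had negative differences whichever array was left out, and the other 5 did not.

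**Figure D3:**
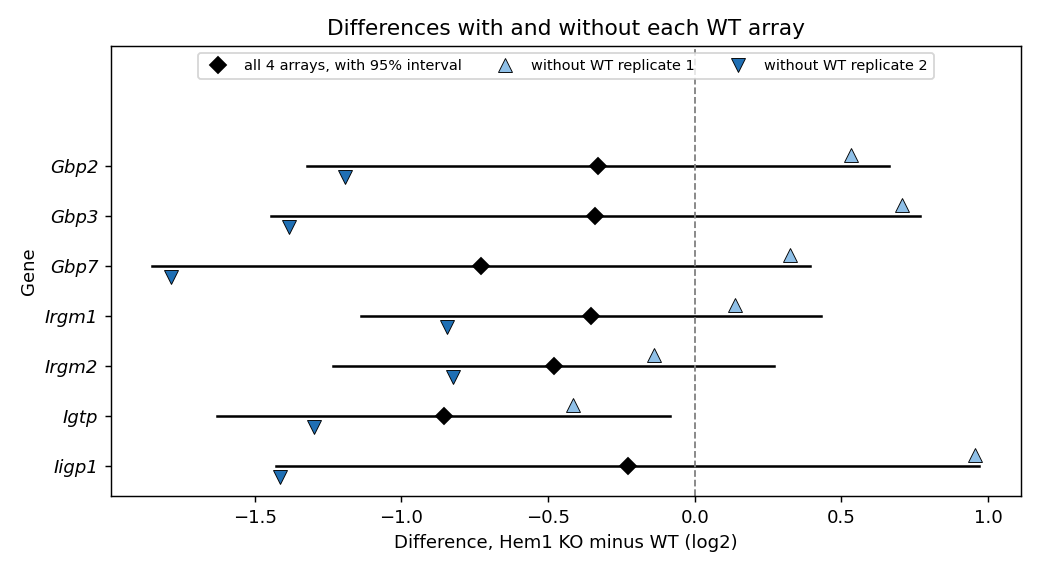
Difference between genotypes (Hem1 KO minus WT, log2, x axis) for each gene (y axis); diamonds with bars are all 4 arrays with the 95% limma interval, and triangles are fits without 1 WT array. On the deposited scale shown, Igtp and Irgm2 alone stay left of 0 without WT replicate 1 (Irgm1 also does once the arrays are centred); without WT replicate 2, all 7 lie left of it.

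The remaining genes of both families behaved variously. Of 8 other GBP symbols, 3 had values, 0 were called and all 3 had negative differences. Gbp9 read 7.42 and 6.58 in WT against 5.98 and 5.68 in Hem1 KO, with no overlap (-1.17, SE 0.35, limma adjusted p = 0.224), and it passed after centring (-1.27, adjusted p = 0.0186) and after quantile normalization (-1.28, adjusted p = 0.0495). On Hem1 KO replicate 1 Gbp9 was below background. Gbp4 read 7.36, 5.98, 6.33 and 6.17 in the order WT 1, WT 2, Hem1 KO 1, Hem1 KO 2.

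Of 11 other IRG symbols, 9 had values, with 0 called, 5 below 0 and a median of -0.12. Gm5431 (-0.82) and Gm12250 (-0.86, the gene of Irgb10, which acts with GBPs on bacterial membranes) had the smallest p-values. Tgtp2, a near-identical neighbour of Tgtp1 whose probe set could read both, was 7.60 and 5.11 in WT against 6.82 and 6.61 in Hem1 KO. Its difference was 0.36, and it was below background on WT replicate 2. The 4 measured Mx and very large GTPases had a median of -0.87, with 0 called and 2 above background on all arrays. Among them Gm1966 read 8.25, 5.48, 5.48 and 5.59 in the same order, so that WT replicate 1 alone stood above the rest. Gm1966 was below background on WT replicate 2 and Hem1 KO replicate 1. Gvin1 read 10.85, 9.37, 9.28 and 9.19.

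The signal upstream of the GTPases was read from ligands, receptors and regulators. Of 10 ligand genes, 4 were above background on all arrays and 4 on none. Ifng read 4.53 and 4.24 in WT against 5.11 and 4.18 in Hem1 KO, below background on all arrays, and Ifnb1 was above it on Hem1 KO replicate 1 alone (6.22). Limma called 0 of the 10, and 0 had an unadjusted p under 0.05. The receptor chains of interferon gamma were above background on all arrays. Ifngr1 read 10.37 and 10.19 in WT against 10.34 and 10.02 in Hem1 KO (-0.10, SE 0.32), and Ifngr2 differed by -0.13 (SE 0.31). Of the 9 measured receptor, JAK and STAT genes, 0 were called and 0 had an unadjusted p under 0.05. Stat2 differed most of the 9 (-0.55, SE 0.34).

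Among 10 transcription factors, limma called 0, and 1 had an unadjusted p under 0.05. That was Irf7, which amplifies the type I response: it read 10.62 on WT replicate 1 and 7.18, 7.21 and 7.25 on WT replicate 2 and the Hem1 KO arrays. It was called when the prior spread in limma was let follow the signal level (a prior that follows intensity, under which 3.15% of all genes were called, adjusted p = 9.18e-05). With all arrays and the usual prior, the difference of Irf7 was -1.67 (SE 0.74, limma adjusted p = 0.862). It became -3.39 once WT replicate 2 was dropped. Dropping a Hem1 KO array gave -1.65 (replicate 1 dropped) or -1.69 (replicate 2 dropped). Such fits gave every gene the same SE, so the spread of Irf7 itself did not enter. All these differences include WT replicate 1, and Irf7 was not called once that array was left out. Irf1, the main interferon gamma-induced factor at GBP promoters, followed the replicate number instead, with 10.36 and 9.19 in WT against 10.20 and 8.80 in Hem1 KO. Thus the array that was highest for all members was far from the others for Irf7 and near Hem1 KO replicate 1 for Irf1. Of 9 brakes on the pathway, 0 were called and 0 had an unadjusted p under 0.05 by limma. Socs1, which blocks the JAKs, read 5.89, 4.98, 5.44 and 5.06, and Usp18, which blocks the type I receptor, 8.90, 7.09, 7.53 and 7.40.

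Interferon targets outside the GTPases were compared with the members array by array. WT replicate 1 was the highest array after centring for 27 of 28 measured type I targets and for 9 of 18 interferon gamma targets. However, 4 of the 18 (Cxcl9, Cxcl11, Nos2 and Ido1) and 1 of the 28 (Ifi44l) were below background on all arrays. Each of these was highest on Hem1 KO replicate 1 after centring, and they are kept in the counts and medians here. The centred gap between the WT arrays had a median of 0.83 in the first list and 0.20 in the second, beside 1.32 for the members. The median difference of the 28 was -0.69. Limma called 0 of them, and 7 had an unadjusted p under 0.05, all lower. Cmpk2, which supplies nucleotides in the antiviral response, read 8.98 and 7.23 in WT against 6.30 and 6.64 in Hem1 KO (-1.63, SE 0.46). It was called with that intensity-following prior (limma adjusted p = 0.0023) and with the replicate number as a block (limma adjusted p = 0.0095). Oasl2, an oligoadenylate synthetase-like gene, differed by -1.03 (SE 0.35). Dropping WT replicate 2 moved the median of the 28 to -1.35, against -0.13 for all genes. Dropping WT replicate 1 instead moved it to 0.13 on the deposited scale, where all genes had a median of 0.16. With the arrays centred as well, a setting chosen after seeing the data, the 28 had a median of -0.17, against -0.14 for all genes. The interferon gamma targets had a median of -0.29. Limma called 0 of them, and 1 passed an unadjusted p of 0.05, the immunoglobulin receptor Fcgr1 (-0.74, SE 0.34), which was called with a prior that follows intensity (adjusted p = 0.000749). Cd274, the checkpoint ligand PD-L1, named after its values were seen, read 10.54 and 9.15 in WT against 9.89 and 7.70 in Hem1 KO (-1.05, SE 0.59). It was called with that prior (limma adjusted p = 0.00351). Its difference was -1.74 without WT replicate 2 and -2.14 when Hem1 KO replicate 1 was left out. The lists share no gene with the members, but Irf7, Usp18, Isg15 and Bst2 stand in 2 lists each.

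The machinery that loads GBP and IRG proteins onto vacuoles was read next. Of its 16 genes, which include the conjugation enzymes of the LC3 and GABARAP proteins, 0 were called by limma, 1 was lower at an unadjusted p under 0.05, and WT replicate 1 was the highest array after centring for 2. The vacuole-damage lectin Lgals3 read 13.19 and 13.13 in WT against 12.42 and 12.51 in Hem1 KO (-0.69, SE 0.31), and the conjugation enzyme Atg7 differed by -0.66 (SE 0.31). Both were called with a prior that follows intensity (adjusted p = 1.43e-06 and 0.0293). Of 8 inflammasome genes that GBPs feed, 0 were called, 1 was lower at an unadjusted p under 0.05, and the median was -0.55. Casp1 read 11.04 and 10.88 in WT against 10.25 and 10.21 in Hem1 KO (-0.73, SE 0.31), and it too was called with that prior (adjusted p = 0.0108). In Lgals3 and Casp1 the Hem1 KO arrays lay below both WT arrays, which in turn lay close together.

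**Figure D4:**
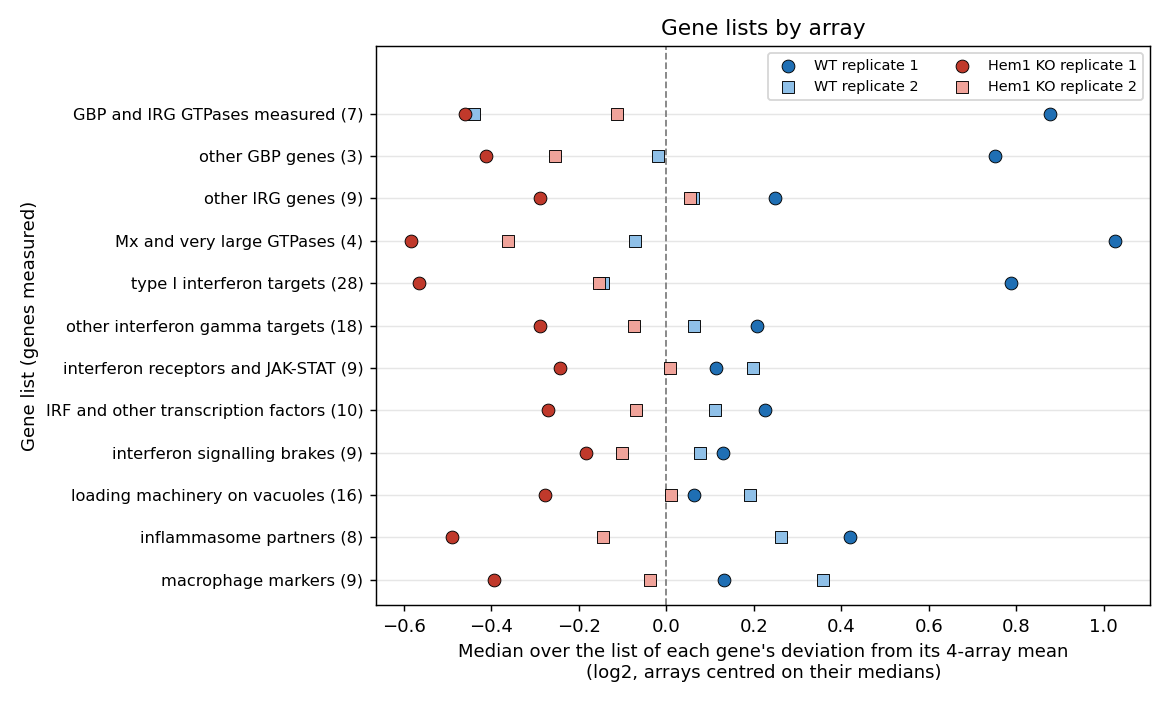
Median over each gene list (y axis, genes measured in brackets) of each gene's deviation from its mean over 4 arrays (x axis, log2, arrays centred on their medians); colours and shapes mark the arrays. WT replicate 1 stands apart for the members (0.88), the other GBP genes, the Mx and very large GTPases and the type I targets, and not for the macrophage markers.

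The 5 genes outside the members whose values over the 4 arrays lay nearest to the members' mean pattern, by Euclidean distance after centring each gene, were AU041133, Gbp4, Acod1, Usp18 and Psme4. Their distances were 0.111 to 0.223, against 0.231 for Gbp2, the nearest member, and 0.738 for Irgm2, the farthest. AU041133 was below background on all arrays. With 4 arrays such likeness is a description only.

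The label of the cultures and their other cells were checked by markers. All 9 measured macrophage markers were above background on all arrays, for example Adgre1 (F4/80) at 11.71 and 11.58 in WT against 11.31 and 11.09 in Hem1 KO. Nckap1l read 11.37 and 11.11 in WT against 10.04 and 9.62 in Hem1 KO (-1.41, limma adjusted p = 0.0467). Stromal markers were higher in Hem1 KO, with 6 of 9 called and a median of 1.94; Mcpt8 was the only one of 5 basophil and mast cell markers called, and Cdh5 the only one of 5 endothelial markers. T and NK cell genes, from the cells that make interferon gamma, summed to 9.50 and 8.83 in WT against 9.69 and 8.60 in Hem1 KO (log2 of the summed values), and 8 of 10 lay below background on all arrays. Cd4 was above it on all 4, at 8.65 and 7.78 in WT against 8.92 and 7.37 in Hem1 KO. It had the highest value of the 10 on each array and so weighed most in the sums. Cd3d was above background on WT replicate 1 alone (6.10, against 4.24, 5.03 and 4.65). B cell genes summed to 8.27 and 7.62 in WT against 7.73 and 7.17 in Hem1 KO, and 0 of the 4 measured were called. Cd79a and Cd79b were above background on all arrays, Pax5 on the WT arrays and Ms4a1 on none. Cd79b was highest on WT replicate 1 (7.07, against 5.84, 6.06 and 5.64). Of 6 plasmacytoid dendritic cell markers, Bst2, Tcf4 and Cox6a2 were above background on all arrays, and Siglech, Ccr9 and Klk1 on none. The part of these cells in the members' values was not tested.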

How the data were processed

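RNA of 4 macrophage cultures was labelled with biotin and read on 1 array each. The authors deposited log2 values made with RMA, per the submitters' processing notes, without version or settings. Their range gave the scale, and no further normalization was applied. Of 19572 probe sets naming 1 gene, the one with the highest mean was kept per gene (19505 genes; 55 had several).

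Limma 3.58.1 in R 4.3.3 (lmFit, eBayes) compared the genotypes with no other term, two-sided, with Benjamini-Hochberg adjustment over all genes. An exact permutation test of 2 against 2 arrays cannot go below 0.333. The number of arrays limits the precision. The fit was tested on simulated data. Background was the 95th percentile of 1448 chemosensory receptor genes per array. Members and lists were chosen with earlier results of these data known. Named are all members, called list genes or otherwise up to 2 with the smallest p above background, pathway genes fixed by name, and the nearest profiles; Tgtp2 was added as a copy of Tgtp1. The remaining names, and the background level, were picked with the values in view. Alternatives left out each array or changed the scaling, gene filter, prior, probe sets, block or threshold.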

Additional observations from a re-analysis of the deposited data

How the results depend on the processing

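No member was called with all arrays, after centring, after quantile normalization or among the brighter genes (which dropped Iigp1). The same held with a prior that follows intensity and at an adjusted p under 0.1. It also held with averaged probe sets, which could not change a member's value, as each measured member had 1 probe set. Leaving out 1 array gave 0 to 1 called, against 1.23% to 3.07% of all genes, 2 to 7 members below 0 and a median difference of -1.30 to 0.33. Of all genes, 29% to 73% were below 0 in those fits. Groups without overlap, in either direction, were found for 1 to 7 members, against 55.3% to 72.2% of all genes. This is since 1 array of a genotype overlaps less readily. Without WT replicate 1 there were 6 such members, and in 5 of them Hem1 KO was the higher. Over those fits Gbp2 ran from -1.19 to 0.53, Gbp3 from -1.38 to 0.71, Gbp7 from -1.78 to 0.33, Iigp1 from -1.41 to 0.95 and Irgm1 from -0.85 to 0.14. The upper ends came without WT replicate 1 and the lower ends without WT replicate 2. Such fits gave every gene the same SE, 0.50 without WT replicate 2 and 0.40 without 1 Hem1 KO array. A gene's own spread did not enter, so a call in them rests on the size of the difference alone. The arrays were also centred with WT replicate 1 left out, a setting chosen after seeing the data. Then 3 members were below 0 (69% of all genes) and 4 had no overlap in 1 direction or the other (67.3%). Gbp2 was at 0.23, Gbp3 at 0.41, Gbp7 at 0.025 and Iigp1 at 0.65. Centred and without WT replicate 2, 7 were below 0 (53.9% of all genes) and 7 had no overlap (63.3%).

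Of the 121 genes in the 11 pathway lists, 0 were called with all arrays (1.61% of all genes). Without WT replicate 2 there were 12 (1.23%), without Hem1 KO replicate 1 there were 6 (1.9%), without Hem1 KO replicate 2 there were 4 (3.07%), and without WT replicate 1 there were 0 (1.83%). A prior that follows intensity gave 10 (3.15%), centring 1 (2.41%) and quantile normalization 1 (1.69%). The replicate numbers are shared by the genotypes, but the labels do not say that they pair mice. Same-numbered arrays deviated together at r = 0.24 across genes, and with the replicate number as a block 1 member was called, Igtp (-0.86, limma adjusted p = 0.0458), with 7 of the list genes, among them Gbp9, Cd274, Cmpk2 and Oasl2, and 4.2% of all genes (819, from 314).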
